A study of Mus musculus with 9 samples.

Results

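The genes described here, a set used as marks of mesenchymal stromal cells and their matrix, are *Ebf1*, *Ebf3*, *Scarf2*, *Fstl1*, *Pdgfra*, *Pdgfrb*, *Thy1*, *Postn*, *Tnc* and *Fn1*. These are 10 of the 52459 gene symbols in the files, with 69 of the 131100 transcripts. They were found by gene symbol, and the list had been chosen with their measured levels in these libraries known. Levels and fold changes of the 10 genes between conditions are therefore a description and carry no test.

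The libraries were made from NMuMG cells, an immortalized mouse mammary gland epithelial line, in 3 conditions with 3 libraries each. Mock cells carried the empty pBICEP-CMV-2 vector, EPR cells carried the same vector with the long non-coding RNA EPR (BC030870) under its CMV promoter, and EPRSTOPE cells carried EPR with the second codon of its short open reading frame changed to a stop, so that the RNA but not its peptide can be made. All were stable transfectant pools kept under G418 and were sampled without TGF-β. The study describes the libraries as biological triplicates, but whether the 3 libraries of a condition came from separate pools is not given in the sources used here. The p-values measure the spread between these libraries, and where these share a pool a difference between conditions cannot be told apart from a difference between pools.

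The early B-cell factors Ebf1 and Ebf3 are transcription factors that bind DNA as dimers and are known from lymphoid, adipose and mesenchymal cells. PDGF receptors α and β are tyrosine kinases of mesenchymal cells and pericytes that bind platelet-derived growth factors, while Thy1 is a membrane-anchored surface protein widely used as a fibroblast marker. Fibronectin (Fn1), tenascin-C (Tnc), periostin (Postn) and follistatin-like 1 (Fstl1) are secreted into or around the extracellular matrix, where fibronectin binds integrins and is assembled into fibrils, and their expression is often raised in epithelial cells that undergo epithelial-to-mesenchymal transition.

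Totals ran from 5972457 to 11876435 estimated counts per library, so 3 counts correspond to 0.253 to 0.502 counts per 1000000 counts of the library (CPM). The EPR RNA had 0 to 2 estimated counts in mock, 214.4 to 271.1 in EPR and 28.3 to 39.0 in EPRSTOPE libraries, so the 2 transfectants differed in the level of the RNA as well as in the peptide, which cannot be told apart in their direct comparison. Of 15 mammary epithelial markers, 3 reached 1 TPM (transcripts per 1000000, scaled by length) in mock cells (*Krt8*, *Krt18*, *Krt19*), 7 with EPR and 6 with EPRSTOPE. *Epcam*, *Esrp1*, *Krt5* and 3 claudins had no count in mock cells. *Esrp1* and the 3 claudins had none in EPRSTOPE cells either, and of these genes only *Epcam* reached 1 TPM in EPR cells (mean 1.59). The summed level of these markers was 2312 to 2901 TPM in mock, 5190 to 6432 in EPR and 5692 to 7708 in EPRSTOPE libraries. None of 10 fibroblast markers reached 1 TPM in any condition, with summed levels of 0.33 to 1.23 TPM in mock, 0.95 to 1.43 in EPR and 0.94 to 1.51 in EPRSTOPE libraries, and *Dpt* was without a count throughout. Of 10 pericyte and smooth muscle markers, *Acta2* and *Tagln* reached 1 TPM in mock cells, where the list summed to 9.75 to 13.8 TPM against 1.33 to 1.42 in EPR and 1.07 to 2.03 in EPRSTOPE libraries. The part of these marker differences in the results below was not tested.

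The 10 genes fell into a group of 5 that mock cells expressed and a group of 5 with low levels throughout. *Fn1*, *Tnc*, *Fstl1*, *Scarf2* and *Ebf3* had mock means of 18.3 CPM or more and were lower in EPR cells, whereas *Pdgfra*, *Pdgfrb*, *Thy1*, *Postn* and *Ebf1* had means of at most 1.51 CPM in every condition. Since the fibroblast markers were under 1 TPM and 5 of the 10 genes were this low, the genes are described by name and not as the identity of a cell type. Together the 10 genes took 0.139 to 0.151% of all estimated counts in mock, 0.0387 to 0.0414% in EPR and 0.0796 to 0.0939% in EPRSTOPE libraries, most of it from *Fn1*.

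**Figure D1:**
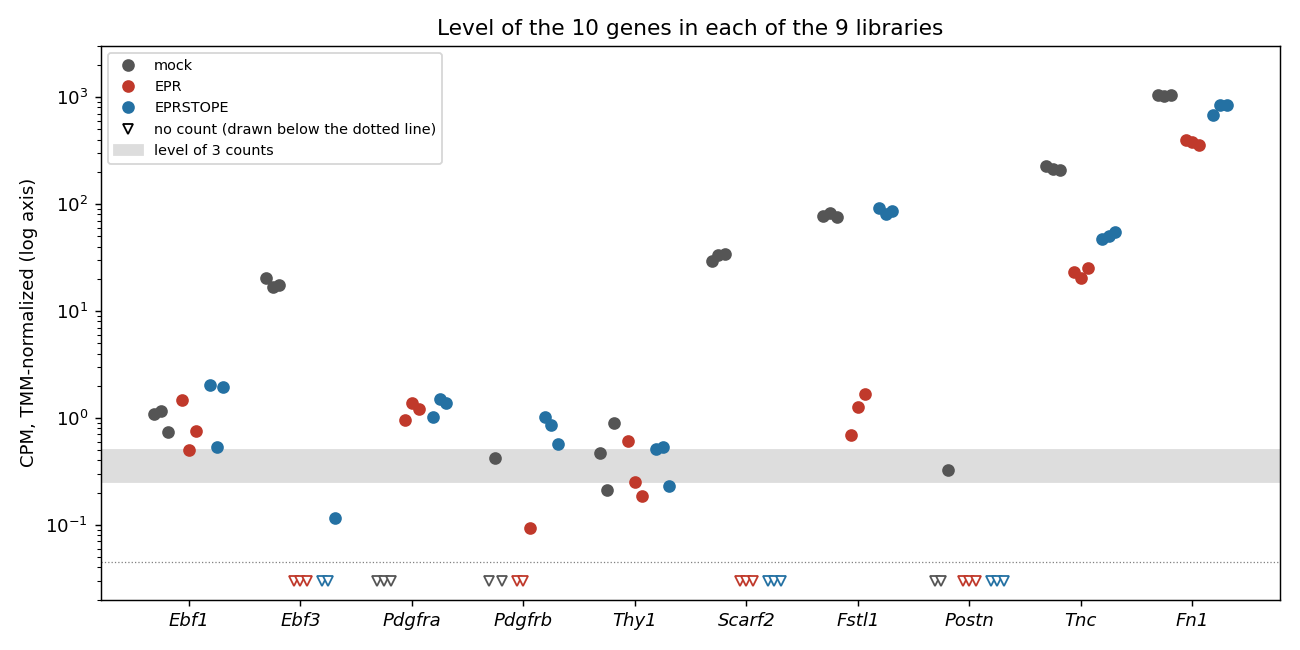
TMM-normalized CPM on a log axis for the 10 genes, with 1 filled point per library (3 mock, 3 EPR, 3 EPRSTOPE), open triangles for libraries without a count, and a grey band at the level of 3 counts. *Scarf2* and *Ebf3* have points only in mock libraries apart from 1 EPRSTOPE count of *Ebf3*, and *Fstl1* is at 0.698 to 1.68 CPM in EPR libraries against 75.7 CPM or more in all other libraries.

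Calls were read against the whole table. A gene was called when edgeR's quasi-likelihood test gave an adjusted p (Benjamini-Hochberg) under 0.01 together with an absolute log2 fold change over 0.5, among the 15370 genes that reached 1 CPM in 3 or more libraries. That filter kept 7 of the 10 genes and left *Pdgfrb*, *Thy1* and *Postn* untested. *Ebf3* and *Scarf2* passed it only through the mock libraries and *Pdgfra* only through the EPR and EPRSTOPE libraries, so these had to differ. Leaving out any 1 mock library removed *Ebf3* and *Scarf2* by the same filter, which brought the counts called lower to 3 and 1, and a fit of the compared conditions only removed *Pdgfra*. In EPR against mock cells 5 of the 7 tested were called lower, where 12.9% of all genes tested were, and 1 was called higher, where 15.2% were. In EPRSTOPE against mock cells 3 were called lower against a background of 12.4% and 1 higher against 15.6%. In EPR against EPRSTOPE cells 3 were called lower against 6.35% and 0 higher against 6.86%, and limma-voom and DESeq2 called 0 higher as well. None of the 7 had a fitted fold above 0 there, so 0 were higher at an unadjusted p under 0.05. The list was chosen on these contrasts, and nothing is read from the counts.

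Of the transcription factors, *Ebf3* (ENSMUSG00000010476.14, chromosome 7 of GRCm38 from 137193673 to 137314445, minus strand) was detected in mock cells almost alone. Its level was 20.5, 16.9 and 17.5 CPM in the mock libraries, 0 in the 3 EPR libraries, and 0, 0 and 0.115 CPM in the EPRSTOPE libraries. The mock libraries held 507 counts in all against 0 and 1, so mock stood apart and the other 2 conditions overlapped. In RNA from whole cultures, fewer cells that express a gene and less RNA per cell cannot be told apart. Taking 3 counts over the 3 EPR libraries as the limit, *Ebf3* was at least 180-fold higher in mock than in EPR cells (111-fold without EPR replicate 206, 115-fold without 208), and the ratio of mock to EPRSTOPE was 431 with an exact 95% counting interval of 77.0 to 17000. That ratio rests on 1 count in EPRSTOPE replicate 211, and the other EPRSTOPE libraries had none. The count lay on Ebf3-207, a retained-intron transcript. In mock cells 409.0 of 506.8 estimated counts were on coding transcripts, but their split between isoforms was erratic, since Ebf3-201 took 78.6, 19.2 and 0 of them in the 3 libraries and Ebf3-204 took 4.8, 45.1 and 101.7.

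*Ebf1* (ENSMUSG00000057098.14, chromosome 11) stayed low throughout. Levels were 1.09, 1.16 and 0.733 CPM in mock, 1.48, 0.505 and 0.748 in EPR and 2.03, 0.534 and 1.96 in EPRSTOPE libraries. The 3 conditions overlapped, and with 27, 29 and 34 counts in all a difference was not detectable at this depth. The exact 95% counting interval of the EPRSTOPE to mock ratio, 1.48, ran from 0.868 to 2.55.

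Among receptors and surface proteins, *Scarf2* (ENSMUSG00000012017.3, chromosome 16 from 17797282 to 17808293, plus strand), a scavenger receptor class F member of the cell membrane, gave the cleanest separation. The mock libraries held 29.4, 33.0 and 34.3 CPM, from 189, 313 and 422 counts, while no count was found in any of the 6 EPR and EPRSTOPE libraries. *Scarf2* was thus at least 329-fold higher in mock than in EPR cells and at least 262-fold higher than in EPRSTOPE cells, counting 3 counts over each group as the limit. The first bound fell to 203 and 210 without EPR replicate 206 or 208, and the second to 159 and 167 without EPRSTOPE replicate 210 or 211. The files list 1 transcript for it.

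The bases just before the annotated starts of *Scarf2* and *Ebf3* are shown because these 2 genes shared a pattern, with no count in the EPR and EPRSTOPE libraries apart from the single one of *Ebf3*. They were taken from RefSeq (GRCm38.p6), written 5′ to 3′ on the gene's strand, with CpG dinucleotides in capitals. The window of *Scarf2* is chr16:17797032-17797281, plus strand, and that of *Ebf3* is chr7:137314446-137314695, minus strand.
Scarf2: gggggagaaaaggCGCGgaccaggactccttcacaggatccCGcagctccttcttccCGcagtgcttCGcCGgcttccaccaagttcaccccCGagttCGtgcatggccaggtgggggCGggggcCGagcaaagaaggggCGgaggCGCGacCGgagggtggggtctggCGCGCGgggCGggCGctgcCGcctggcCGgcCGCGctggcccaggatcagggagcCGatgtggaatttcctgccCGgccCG
Ebf3: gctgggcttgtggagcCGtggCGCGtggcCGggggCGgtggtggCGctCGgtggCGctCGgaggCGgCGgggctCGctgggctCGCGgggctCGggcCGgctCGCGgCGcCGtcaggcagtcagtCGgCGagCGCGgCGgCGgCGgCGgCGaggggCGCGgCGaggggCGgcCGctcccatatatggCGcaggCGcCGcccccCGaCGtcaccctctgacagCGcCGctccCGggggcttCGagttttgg

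Both windows are rich in CpG. The 250 bases of *Ebf3* hold 43 CpG and 80.0% G and C, with an observed to expected CpG ratio of 1.11, above 98.0% of the 32851 windows in the table, and those of *Scarf2* hold 26 CpG, 72.0% G and C and a ratio of 0.81, above 82.0%. The median window had a ratio of 0.37. Windows were found for 7 of the 10 genes, 10 windows in all, with ratios of 0.65 for *Fstl1*, 0.62 and 0.64 for *Tnc*, 0.85 and 0.99 for *Ebf1*, 0.24 and 0.34 for *Postn* and 0.22 for *Pdgfra*. *Fn1*, *Pdgfrb* and *Thy1* had none in the table. The palindrome bound by early B-cell factors, TCCCNNGGGA, was in 0 of the 10 windows and in 0.78% of all windows. The E-box CAGGTG, on either strand, was in 1 of the 10 (*Scarf2*) against 17.2% of all, and TATAAA on either strand was in 3 of the 10 (both *Tnc* windows and 1 of *Postn*) against 12.4%. The *Tnc* windows overlap each other, so their TATAAA matches may be the same site. All these are matches of letters in short windows and do not show binding.

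*Pdgfra* (ENSMUSG00000029231.15, chromosome 5) ran the other way at a far lower level. No count was found in the 3 mock libraries, whereas EPR libraries held 0.960, 1.39 and 1.22 CPM and EPRSTOPE libraries 1.02, 1.495 and 1.38 CPM. The transfectants did not overlap with mock and overlapped with each other. With 3 counts over the mock libraries as the limit, *Pdgfra* was at least 10.9-fold higher in EPR and at least 12.6-fold higher in EPRSTOPE cells, on 35 and 32 counts. These bounds were 7.22 and 8.29 without mock replicate 204 and 6.14 and 7.04 without 205. The EPR to EPRSTOPE ratio was 0.871, with an exact 95% counting interval of 0.524 to 1.45.

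*Pdgfrb* (ENSMUSG00000024620.11) was untested. It gave 0, 4 and 0 counts in mock, 0, 0 and 1 in EPR and 6, 8 and 5 in EPRSTOPE libraries, so that only the EPRSTOPE libraries had counts throughout. In CPM these were 0, 0.422 and 0, then 0, 0 and 0.093, then 1.02, 0.854 and 0.575. The ratio of EPRSTOPE to mock was 5.59 (exact 95% counting interval 1.86 to 22.6) and that of EPRSTOPE to EPR was 23.9 (3.79 to 991), intervals that cover counting error only.

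*Thy1* (ENSMUSG00000032011.5, chromosome 9) gave 3, 2 and 11 counts in mock, 7, 2 and 2 in EPR and 3, 5 and 2 in EPRSTOPE libraries, with full overlap between conditions. All of them were assigned to Thy1-202, a retained-intron transcript, and its 4 coding transcripts had 0 estimated counts in every library. No coding *Thy1* RNA was thus detectable at this depth.

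Among the secreted and matrix proteins, *Fstl1* (ENSMUSG00000022816.11, chromosome 16 from 37776873 to 37836514, plus strand), a glycoprotein with follistatin and SPARC-like domains, separated EPR cells from the other 2 conditions. Mock libraries held 76.6, 81.8 and 75.7 CPM and EPRSTOPE libraries 92.3, 80.4 and 85.7 CPM, but EPR libraries only 0.698, 1.26 and 1.68 CPM. The EPR libraries lay far below all others, and mock and EPRSTOPE libraries overlapped. The fitted log2 fold change was −6.01 (standard error 0.16) for EPR against mock, −6.15 (0.16) for EPR against EPRSTOPE and 0.14 (0.10) for EPRSTOPE against mock. Leaving out 1 library at a time moved the first of these between −6.35 (without EPR replicate 208) and −5.68 (without EPR replicate 206). With counts scaled from TPM, which give short transcripts more weight, the first 2 values were −4.39 and −4.29, and the third was −0.10.

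Most of what was left of *Fstl1* in EPR cells was not its coding transcript. Fstl1-201, the 1 coding transcript, had 427.1, 706.1 and 844.6 estimated counts in mock, 1.0, 2.0 and 9.0 in EPR and 526.7, 747.2 and 675.7 in EPRSTOPE libraries. Fstl1-206, a processed transcript of 777 nucleotides without a coding sequence, had 14.2, 13.7 and 21.4 in mock, 7.3, 7.6 and 9.2 in EPR and 0.9, 5.7 and 7.9 in EPRSTOPE libraries. In EPR cells these 2 held all the counts. The level of the coding transcript averaged 14.9 ± 2.43 TPM in mock cells, 0.086 ± 0.082 TPM with EPR and 18.9 ± 3.57 TPM with EPRSTOPE (SD, n = 3 each), so the fold at the gene level understates how little coding RNA remained. The coding share of the gene's TPM averaged 50.3 ± 7.1% in mock cells, 6.7 ± 6.4% with EPR and 78.6 ± 20.2% with EPRSTOPE (SD, n = 3 each). The last of these was spread widely, with 84.2, 95.4 and 56.2% in the 3 libraries.

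**Figure D2:**
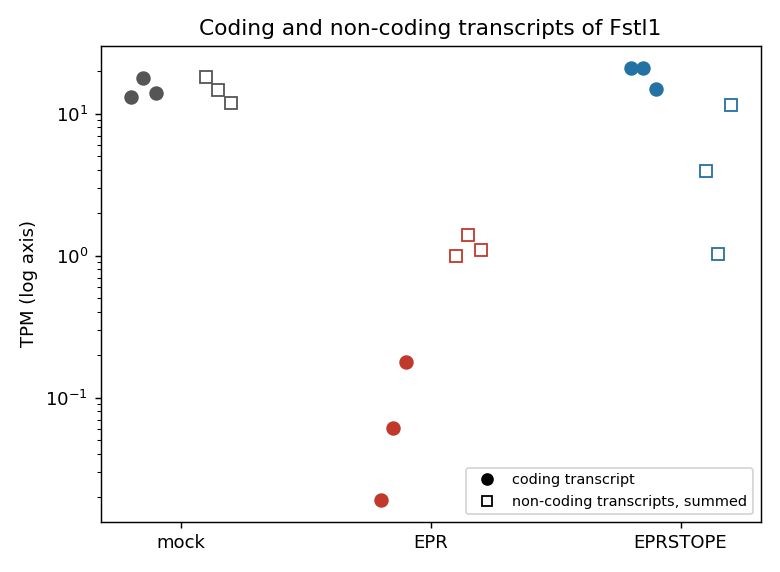
TPM of *Fstl1* on a log axis, with 1 point per library in each condition, filled circles for the coding transcript and open squares for the summed non-coding transcripts. In EPR libraries the coding transcript is at 0.019 to 0.178 TPM, below the non-coding transcripts at 0.996 to 1.40 TPM, whereas in EPRSTOPE libraries it is at 14.8 TPM or more.

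*Tnc* (ENSMUSG00000028364.15, chromosome 4 from 63959785 to 64047015, minus strand) was graded over the 3 conditions. Mock libraries held 226, 211 and 207 CPM, EPR libraries 23.2, 20.2 and 25.3 CPM and EPRSTOPE libraries 47.1, 49.7 and 54.4 CPM. No 2 conditions overlapped, with mock the highest and EPR the lowest. The log2 fold change was −3.22 (standard error 0.09) for EPR against mock, −2.09 (0.08) for EPRSTOPE against mock and −1.13 (0.09) for EPR against EPRSTOPE. A coding exon of 273 nucleotides (chromosome 4, 63984460 to 63984732), a whole number of codons, is present in Tnc-203 and skipped in Tnc-201 and Tnc-204. Tnc-203 took 10.0, 8.94 and 16.5% of the TPM of these 3 transcripts in mock, 0, 0 and 8.11% in EPR and 0, 3.93 and 3.64% in EPRSTOPE libraries, so the mock libraries were highest. This share rests on at most 22.0 estimated counts per transfectant library.

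*Postn*, a matricellular protein known from activated fibroblasts, was nearly absent. The only counts were 4 in mock replicate 205 (0.326 CPM), and it was untested.

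*Fn1* (ENSMUSG00000026193.15, chromosome 1 from 71585520 to 71653200, minus strand) had the highest level of the 10 genes in every condition. Mock libraries held 1050.1, 1017 and 1051 CPM, EPR libraries 397, 381 and 358 CPM and EPRSTOPE libraries 680.4, 832 and 834 CPM. The conditions did not overlap, and EPRSTOPE lay between the other 2. The log2 fold change was −1.46 (standard error 0.08) for EPR against mock, −0.41 (0.08) for EPRSTOPE against mock, short of the limit of 0.5 for a call, and −1.05 (0.08) for EPR against EPRSTOPE.

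Fibronectin RNA is spliced into forms with or without the extra domains A and B (EDA and EDB), 2 fibronectin type III repeats encoded by 1 exon each that are widely known from embryonic, wound and fibrotic matrix. In the reference annotation (Gencode M21, GRCm38), whose 17 *Fn1* transcripts have the same identifiers and lengths as in the files, 7 full-length coding transcripts span both exons. EDA is in 4 of them (Fn1-201, Fn1-211, Fn1-213 and Fn1-214) and EDB in Fn1-201 only. Both exons are coding and a whole number of codons long, 270 nucleotides (90 codons) for EDA at chr1:71603660-71603929 and 273 nucleotides (91 codons) for EDB at chr1:71613763-71614035. They are printed because the share of *Fn1* transcripts holding them was lower in both transfectants than in mock cells. Both are written 5′ to 3′ on the gene's strand, with the exon in capitals between 12 bases of each neighbouring exon of Fn1-201 in lower case.
EDB: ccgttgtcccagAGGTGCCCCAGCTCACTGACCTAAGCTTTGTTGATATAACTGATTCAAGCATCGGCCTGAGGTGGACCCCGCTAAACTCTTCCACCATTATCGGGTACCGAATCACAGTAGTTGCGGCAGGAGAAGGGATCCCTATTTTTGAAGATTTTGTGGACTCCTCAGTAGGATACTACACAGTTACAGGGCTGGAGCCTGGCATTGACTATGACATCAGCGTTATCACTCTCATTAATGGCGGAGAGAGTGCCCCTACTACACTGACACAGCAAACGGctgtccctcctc
EDA: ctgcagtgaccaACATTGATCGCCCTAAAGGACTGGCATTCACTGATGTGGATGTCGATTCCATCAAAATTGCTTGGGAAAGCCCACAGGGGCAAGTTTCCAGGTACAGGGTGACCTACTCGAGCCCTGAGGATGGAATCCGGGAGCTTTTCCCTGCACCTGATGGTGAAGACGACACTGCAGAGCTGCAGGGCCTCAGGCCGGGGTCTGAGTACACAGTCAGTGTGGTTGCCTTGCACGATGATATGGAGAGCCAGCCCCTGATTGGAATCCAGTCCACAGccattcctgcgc

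The share of EDA transcripts was lower in both transfectants. EDA transcripts took 55.2, 50.6 and 54.5% of the TPM of the 7 transcripts in mock, 19.3, 18.5 and 19.4% in EPR and 15.6, 25.2 and 18.8% in EPRSTOPE libraries. Mock libraries were above all others, and the 2 transfectants overlapped, with means of 53.5 ± 2.5%, 19.1 ± 0.5% and 19.8 ± 4.9% (SD, n = 3 each). EDB transcripts took 25.0, 26.2 and 24.9% in mock, 18.9, 12.7 and 10.3% in EPR and 2.35, 3.03 and 4.84% in EPRSTOPE libraries. EDB was thus lowest in EPRSTOPE cells without overlap, an order that is not that of the gene's level, where EPR was lowest. In EPR cells most EDA lay on the transcript that also held EDB, and nearly all of it in EPR replicate 206, where Fn1-201 had 795.2 estimated counts and the other 3 EDA transcripts 14.0, 2.8 and 0. None of the 7 transcripts holds EDB without EDA. Reads of EDB therefore count towards the EDA share by the annotation, and EDB on its own could not be seen.

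The level of EDA transcripts summed to 40.1, 44.6 and 40.7 TPM in mock, 6.86, 6.95 and 5.92 in EPR and 11.2, 22.9 and 11.5 in EPRSTOPE libraries. Transcripts without EDA summed to 32.5, 43.6 and 33.9 TPM in mock, 28.7, 30.6 and 24.6 in EPR and 60.3, 68.0 and 49.8 in EPRSTOPE libraries. The forms without EDA were thus higher in EPRSTOPE than in mock libraries, although the gene's summed CPM was lower there. The variable region further on also differed, since transcripts with its 467-nucleotide exon took 76.3 ± 3.9% in mock cells, 47.7 ± 15% with EPR and 38.5 ± 6.4% with EPRSTOPE, those with an exon of intermediate length took 19.7 ± 3.8%, 40.4 ± 15.7% and 49.6 ± 4.4%, and those with the 107-nucleotide exon, which skips 360 nucleotides of it, took 4.0 ± 1.5%, 11.9 ± 1.3% and 11.9 ± 2.8% (SD, n = 3 each). For the exon of intermediate length EPR replicate 208, at 24.4%, lay next to the highest mock library, at 24.0%. The shares of the variable region come from the same transcripts as those of EDA and EDB and are not independent of them. The 467-nucleotide exon is in Fn1-201, Fn1-203 and Fn1-214, of which Fn1-201 and Fn1-214 hold EDA.

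**Figure D3:**
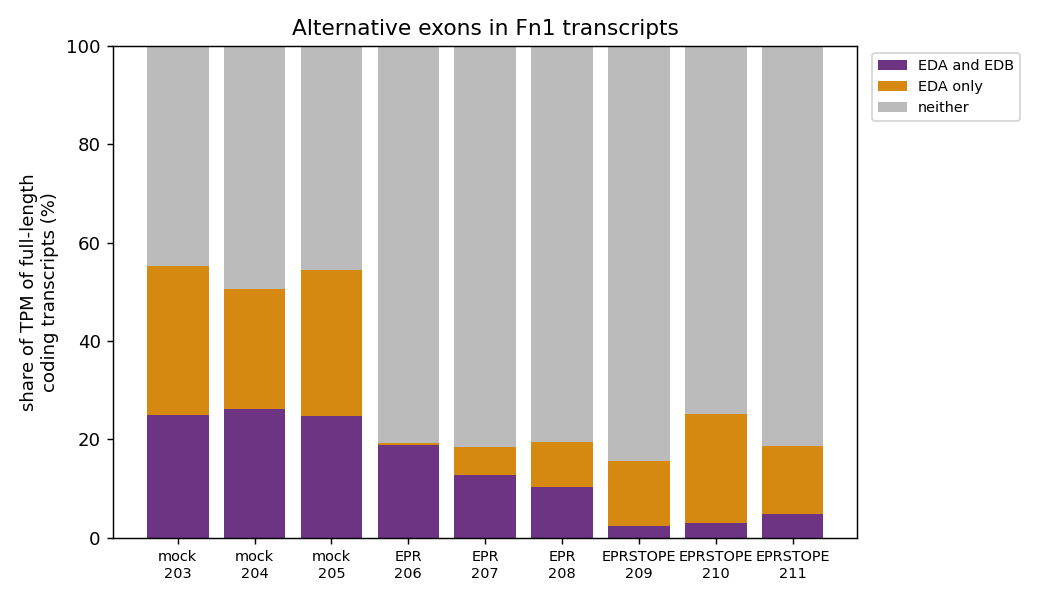
Share in percent of the TPM of the 7 full-length coding *Fn1* transcripts in each of the 9 libraries, stacked by whether the transcripts hold EDA and EDB, EDA only or neither. Transcripts with neither exon take under 50% in the 3 mock libraries and more than 74% in the 6 EPR and EPRSTOPE libraries, and the part with both exons is smallest in EPRSTOPE.

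These shares are estimates, in which the quantification divides reads that fit several transcripts. The exon groups were drawn up after the transcript values had been seen, and the contrasts are those on which the genes were chosen, so no p is given. Among 8661 genes with 2 or more kept transcripts, edgeR's test for changed transcript usage called 1.11% in EPR against mock, 1% in EPRSTOPE against mock and 0.312% in EPR against EPRSTOPE at an adjusted p under 0.01. It could be run for 4 of the 10 genes (*Ebf3*, *Fstl1*, *Tnc* and *Fn1*) and called 0 of them in each comparison, with 2 (*Fn1*, *Fstl1*), 1 (*Fn1*) and 1 (*Fstl1*) at an unadjusted p under 0.05. With limma's diffSplice 1 was called in EPR against mock and 1 in EPRSTOPE against mock, *Fn1* in both, and 0 in EPR against EPRSTOPE. The shares above are edgeR's at an adjusted p under 0.01. They are no background for the unadjusted counts or for limma's, and nothing is read from those counts.

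Per unit length the order of the genes differed between conditions. In mock cells it was *Fn1* (321 ± 28.4 TPM), *Fstl1* (29.8 ± 3.45), *Tnc* (23.5 ± 2.15), *Scarf2* (8.04 ± 1.18) and *Ebf3* (6.72 ± 0.845), all summed over transcripts (SD, n = 3). *Fstl1* was above *Tnc* within each of the 3 libraries (31.1, 32.3 and 25.8 against 22.7, 25.9 and 21.9 TPM), although their ranges overlapped. *Scarf2* and *Ebf3* changed order between libraries (6.80, 9.16 and 8.16 against 7.69, 6.15 and 6.32 TPM) and did not differ beyond their spread. In EPR cells *Fn1* (78.4 ± 8.79 TPM) was followed by *Tnc* (2.69 ± 0.107) and *Fstl1* (1.25 ± 0.223), and in EPRSTOPE cells *Fn1* (179 ± 74.1) by *Fstl1* (24.5 ± 2.16) and *Tnc* (6.05 ± 0.636), without overlap. Part of the wide spread of *Fn1* in EPRSTOPE cells lay in its transcripts not annotated as coding, which summed to 22.7, 57.6 and 119 TPM in the 3 libraries, and in Fn1-206, a coding transcript of 671 nucleotides with 0, 12.6 and 63.8 TPM.

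The genes whose log2(CPM + 1) followed each of the 5 expressed genes most closely over the 9 libraries are given as a description, searched among the 9933 genes whose mean reached 10 CPM in 1 condition. With 3 groups of 3, any gene with the same order of group levels reaches a high Pearson's r. For *Ebf3* they were the homeobox gene *Hoxb6* (r = 0.9998) and the chemokine gene *Cxcl12* (0.9994), the latter at 49.2 CPM in mock and 0 in both transfectants. For *Scarf2* they were *Hmgn3*, which encodes a nucleosome-binding protein, and *Gm10184* (0.9998 each), both at 0 CPM in EPR and EPRSTOPE cells. For *Fstl1* they were *Anxa6*, a calcium-dependent membrane-binding annexin with 307, 1.21 and 232 CPM in mock, EPR and EPRSTOPE (0.9964), and *Uhrf1* (0.9948). For *Tnc* they were *Nt5dc2* (0.9987) and *Bcat1* (0.9983), and for *Fn1* the syndecan gene *Sdc3* with 65.0, 22.9 and 45.3 CPM (0.9941) and *Setbp1* (0.9913). The likeness of the other 5 genes, whose counts are low, was not read.

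Genes related to the 10 by family, pathway or role were drawn from 6 lists of 116 genes, of which 71 were tested. In EPR against mock cells 15 were called higher and 21 lower, beside 15.2% and 12.9% of all genes tested. In EPRSTOPE against mock 21 were called higher and 11 lower, beside 15.6% and 12.4%, and in EPR against EPRSTOPE 6 and 19, beside 6.86% and 6.35%. These shares are the background of the list counts below. The 11 lower fell to 7 without mock replicate 204 or 205. Their median log2 fold changes were −0.09, 0.06 and −0.21, beside −0.01, −0.04 and 0.01 over all genes tested. The lists were drawn up with earlier results of these data known, and the adjusted p-values below are from edgeR's quasi-likelihood test over all 15370 genes.

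Transcription factors of mesenchyme went both ways. In EPR against mock cells 8 of 14 tested were called lower and 1 higher, and in EPRSTOPE against mock 4 lower and 3 higher. The 8 fell to 5 without mock replicate 205 and with counts scaled from TPM. The 4 fell to 2 without mock replicate 203, EPRSTOPE replicate 209 or with counts scaled from TPM and to 1 without mock replicate 204 or 205. *Prrx2*, a paired-related homeobox gene of limb and skin mesenchyme, was at 14.6 ± 1.70 CPM in mock, 0.241 ± 0.209 with EPR and 0 with EPRSTOPE, on 413, 8 and 0 counts. It passed the filter only through the mock libraries, so it had to differ and its call is no support. *Twist2* fell from 26.8 ± 2.69 CPM to 9.82 ± 1.14 with EPR (adjusted p = 5.8e-05) and to 12.4 ± 3.77 with EPRSTOPE (adjusted p = 0.00043). *Zeb2*, a repressor of epithelial genes, fell with EPR by 0.78 on the log2 scale (adjusted p = 2.9e-05), and *Nr2f2* by 0.76 (adjusted p = 0.0033). In the same list *Zeb1* was called in neither comparison with mock (log2 fold change −0.13 and −0.11). *Snai1* was called higher with EPRSTOPE only (1.59, adjusted p = 0.00045). *Snai2* was called lower with both (−1.505 and −1.03, adjusted p = 0.00043 and 0.0055). The means of *Snai1* and *Snai2* were at most 6.83 CPM. The forkhead gene *Foxf1* rose from 1.46 ± 0.801 CPM to 9.61 ± 0.415 with EPR (adjusted p = 3.9e-06) and to 23.9 ± 1.76 with EPRSTOPE (adjusted p = 7.4e-08), and *Tbx18* was called higher only with EPRSTOPE (log2 fold change 0.62, adjusted p = 0.0012). For *Foxf1* and *Tbx18* EPR was below EPRSTOPE by 1.31 and 0.95 on the log2 scale (adjusted p = 0.00032 and 0.00012).

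Of 17 PDGF ligands and receptor signalling proteins tested, 3 were called higher and 3 lower with EPR, and 3 higher and 1 lower with EPRSTOPE. With counts scaled from TPM the lower counts were 1 and 0. *Plat*, tissue plasminogen activator, which activates PDGF-CC, rose from 23.0 ± 2.11 CPM to 265 ± 4.95 with EPR and 341 ± 39.1 with EPRSTOPE (adjusted p = 6.7e-11 and 2.9e-11). The ligand gene *Pdgfc* fell by 0.80 on the log2 scale with EPR and by 0.67 with EPRSTOPE (adjusted p = 1.6e-05 and 7.3e-05). The adaptor gene *Shc1* rose from 88.3 ± 3.24 to 224 ± 7.46 and 192 ± 5.59 CPM (adjusted p = 3.1e-09 and 1.2e-08), *Pik3r2* rose by 0.58 and 0.54 on the log2 scale, and *Cbl*, a ubiquitin ligase of activated receptors, fell by 0.70 with EPR (adjusted p = 0.0024). Their receptors, *Pdgfra* and *Pdgfrb*, had means of at most 1.30 and 0.815 CPM in any condition.

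Of 12 relatives of *Fstl1*, 4 were tested. With EPR 1 was called higher and 1 lower, and with EPRSTOPE 2 higher and 0 lower. *Sparc*, with means of 370 to 413 CPM, and *Dip2a* were called in neither comparison with mock. *Fst*, the activin-binding follistatin, rose from 1.44 ± 0.397 CPM to 24.4 ± 3.19 with EPR (adjusted p = 6.2e-08) and 6.14 ± 1.68 with EPRSTOPE (adjusted p = 4.4e-05), and was higher in EPR than in EPRSTOPE by 1.97 on the log2 scale (adjusted p = 1.8e-05). *Smoc2* had 25 counts in mock, 2 in EPR and 147 in EPRSTOPE libraries. *Smoc2* was called lower with EPR, a call lost in the fit of the compared conditions only, and higher with EPRSTOPE. It passed the filter only with the EPRSTOPE libraries, where it was highest, so the call with EPRSTOPE is no support.

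Of 19 stromal surface genes and relatives of *Scarf2*, 11 were tested. *Mcam*, the 1 gene called lower in both transfectants, was at 8.61 ± 1.46 CPM in mock, 0.451 ± 0.156 with EPR and 0.527 ± 0.272 with EPRSTOPE. It passed the filter only through the mock libraries and so had to differ, and the lower count was 0 in both comparisons without any 1 of these (and 2 in EPR against mock without EPR replicate 207). Of the 11 tested, 3 were called higher and 1 lower with EPR, beside 15.2% and 12.9% of all genes tested. With EPRSTOPE 5 were called higher and 1 lower, beside 15.6% and 12.4%. *Ly6a*, the antigen Sca-1, rose from 1.51 ± 0.241 CPM to 43.9 ± 4.41 with EPR and 249 ± 13.4 with EPRSTOPE (adjusted p = 5.1e-11 and 1.7e-12), and *Nt5e*, the ecto-nucleotidase CD73, from 1.70 ± 0.524 to 26.3 ± 2.31 and 32.7 ± 2.69 CPM (adjusted p = 5.6e-09 and 2.4e-09). *Lrp1* rose from 82.9 ± 5.53 to 269 ± 20.9 and 458 ± 70.3 CPM. *Vcam1* rose with EPRSTOPE from 41.9 ± 2.33 to 276 ± 11.7 CPM (adjusted p = 1.5e-10) and was 49.7 ± 5.16 CPM with EPR (adjusted p = 0.025). *Ly6a*, *Vcam1* and *Lrp1* were lower in EPR than in EPRSTOPE by 2.50, 2.47 and 0.77 on the log2 scale (adjusted p = 1.8e-09, 1.8e-09 and 0.00015).

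Of 15 matricellular and microfibril genes tested, 3 were called higher and 6 lower with EPR, and 4 higher and 4 lower with EPRSTOPE. *Wisp2* is among those called higher in both, at 0.405 ± 0.072 CPM in mock, 2.74 ± 0.276 with EPR and 7.17 ± 2.12 with EPRSTOPE. It passed the filter only through the EPR and EPRSTOPE libraries, so it had to differ and its calls are no support. *Vcan*, the proteoglycan versican, fell from 131 ± 2.01 CPM to 2.50 ± 0.307 and 2.20 ± 0.601 (adjusted p = 1.1e-11 and 1.2e-11). The thrombospondin gene *Thbs3* fell from 101 ± 7.0 to 3.52 ± 0.785 and 0.942 ± 0.202 CPM (adjusted p = 8.1e-11 and 3e-11), and *Thbs1* from 846 ± 27.2 to 125 ± 4.07 and 447 ± 58.3 CPM (adjusted p = 2.3e-10 and 1.7e-06). Tenascin X (*Tnxb*) rose from 2.99 ± 1.57 to 72.4 ± 3.30 and 63.9 ± 6.75 CPM (adjusted p = 5.9e-09 and 7.1e-09). The fibrillin gene *Fbn1* rose with EPRSTOPE from 1.42 ± 1.39 to 57.5 ± 2.19 CPM (adjusted p = 1.9e-07) and was 2.06 ± 0.771 CPM with EPR (adjusted p = 0.29), and its difference between EPR and EPRSTOPE was −4.85 on the log2 scale (adjusted p = 1.1e-06).

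Among 10 receptors of fibronectin and tenascin tested, 4 were called higher and 2 lower with EPR and 4 higher and 1 lower with EPRSTOPE. With counts scaled from TPM 2 were called higher with EPR, and without EPRSTOPE replicate 211 2 were called lower with EPRSTOPE. *Itga5*, which with *Itgb1* forms the main fibronectin receptor, fell with EPR from 79.8 ± 1.94 to 44.7 ± 4.38 CPM (adjusted p = 5.7e-05) and stood at 60.2 ± 10.7 CPM with EPRSTOPE, short of the fold limit. *Itgb3* rose from 29.5 ± 1.71 to 124 ± 6.62 and 44.2 ± 1.18 CPM (adjusted p = 3.8e-10 and 2.5e-05) and *Itgb6* with EPR from 39.9 ± 7.52 to 71.7 ± 3.30 CPM (adjusted p = 9.9e-05). *Itgb5* fell with EPR by 0.63 and rose with EPRSTOPE by 0.61 on the log2 scale, and *Sdc2* rose with EPR by 0.73 and fell with EPRSTOPE by 0.76, so that EPR and EPRSTOPE differed by −1.24 for *Itgb5* (adjusted p = 3.1e-08) and 1.49 for *Sdc2* (adjusted p = 7.2e-06). *Sdc1* rose from 322 ± 12.6 to 508 ± 17.4 and 767 ± 36.3 CPM (adjusted p = 1.1e-06 and 3.9e-09), and *Sdc4* with EPRSTOPE from 326 ± 11.1 to 725 ± 40.4 CPM (adjusted p = 6.3e-09).

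**Figure D4:**
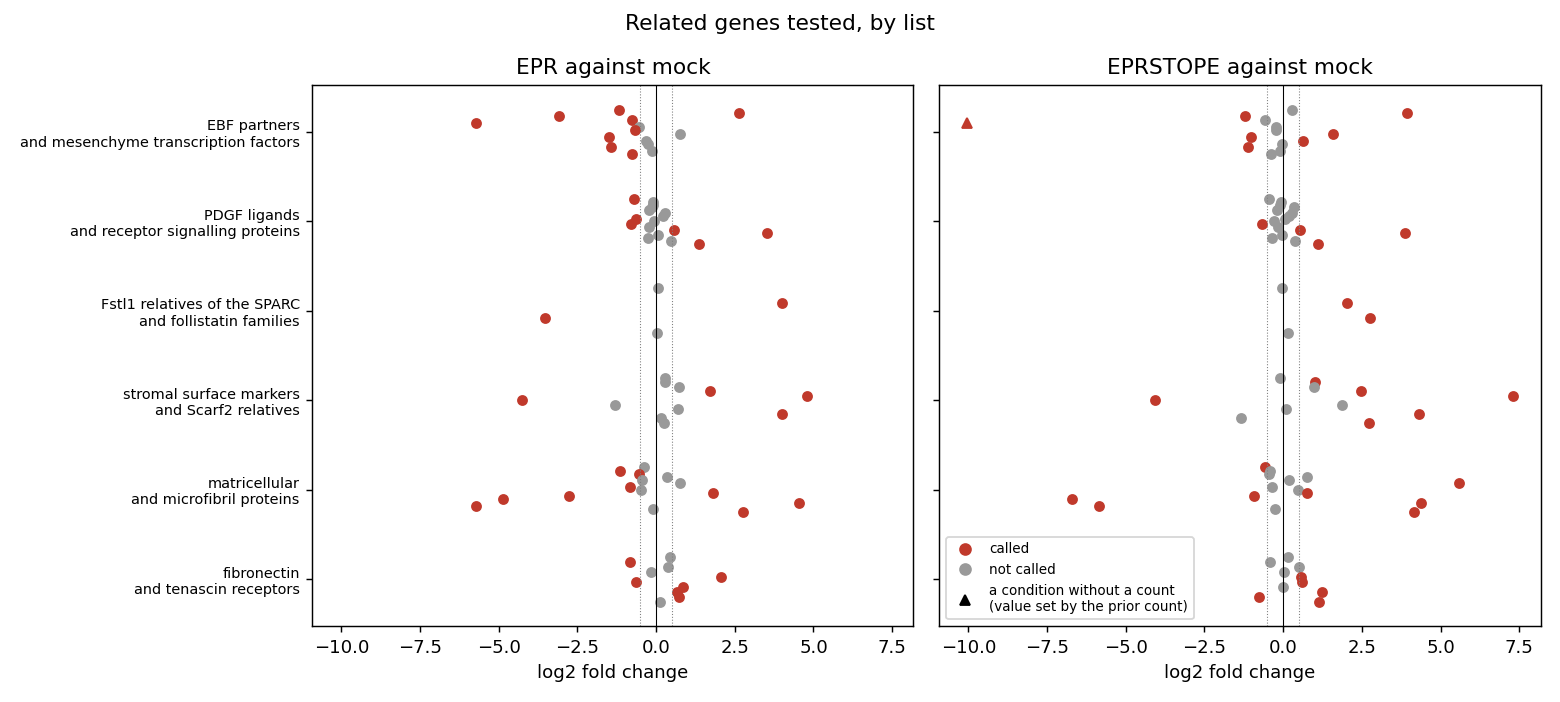
log2 fold change of the 71 related genes tested, 1 point per gene, in 6 rows by list, for EPR against mock (left) and EPRSTOPE against mock (right), with called genes in red, genes not called in grey and dotted lines at a log2 fold change of −0.5 and 0.5. A triangle marks *Prrx2*, which has no count in EPRSTOPE libraries. Called genes lie on both sides of 0 in all but 1 list on the right, the relatives of *Fstl1*.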

How the data were processed

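The data are RNA-Seq values of 9 NMuMG libraries, grouped by their genotype label. Per the labels, total RNA libraries were stranded and read as 75-base pairs. The paper's methods describe its RNA-Seq run differently, with another sequencer and read length. Which description holds for these libraries is not given in the sources used here. The authors quantified read pairs on Gencode vM15 mouse transcripts with kallisto 0.43.1 and deposited estimated counts, not normalized, and TPM per transcript. The submitters' processing notes name GRCm38.p5 and hg38, of which only mouse transcripts are in the files.

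The 10 genes and the lists of related genes were chosen with earlier results of these data known. Estimated counts were summed per gene symbol and rounded. Genes that reached 1 CPM in 3 or more libraries entered the quasi-likelihood test of edgeR 4.0.16 (R 4.3.3) with TMM and 1 factor of 3 levels over all 9 libraries. Calls needed an adjusted p under 0.01 together with an absolute log2 fold change over 0.5. CPM values use TMM library sizes of the genes kept. Transcript usage was tested with edgeR's diffSpliceDGE. All 10 genes are named, with up to 4 called genes of largest fold and at least 10 CPM per related list and comparison with mock, and the 2 genes most alike in log2(CPM + 1). *Smoc2*, *Mcam*, *Wisp2*, *Zeb1*, *Snai1*, *Snai2*, *Sparc* and *Dip2a* were named after their values were seen, as were the markers *Cdh1*, *Ocln*, *Krt7* and *Krt14*. Libraries of 1 condition differed beyond sampling noise (chi-square per degree of freedom 5.11 to 10.9), so each counted as 1 replicate. Intervals and the limit of 3 counts cover counting error only. Scripts were tested on simulated data. Alternatives were limma 3.58.1, DESeq2 1.42.0, other filters, counts scaled from TPM, fits of the compared conditions only, and leaving out each library. Protein sequences were not used here. Sums, shares and plots were made in Python 3.11.15 (matplotlib 3.10.9, scipy 1.17.1, numpy 2.4.6, pandas 2.3.3).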

Additional observations from a re-analysis of the deposited data

How the results depend on the processing

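No paired analysis was possible because the conditions share no replicate numbers. The fold changes of *Tnc* and *Fn1* in the 3 comparisons, and of *Fstl1* in both comparisons with EPR, kept their direction under every alternative run. Counts scaled from TPM turned the uncalled differences of *Ebf1* and *Fstl1* in EPRSTOPE against mock to −0.21 and −0.10 on the log2 scale and gave −0.68 for *Fn1* there. With counts scaled from TPM, the genes called lower came to 1260 in EPR against mock and 1194 in EPRSTOPE against mock, and those in EPR against EPRSTOPE to 463 higher and 444 lower. The cause was not tested. In fits of the compared conditions only, 0 of the 10 genes were called higher in EPR against mock and 0 in EPRSTOPE against mock, because *Pdgfra* then failed the filter. The genes called lower among the 10 ranged from 3 to 5 in EPR against mock and from 1 to 3 in EPRSTOPE against mock when 1 library was left out, the lower counts coming without any 1 mock library, since *Ebf3* and *Scarf2* were then left with 2 libraries and failed the filter. Related genes called lower in EPRSTOPE against mock ranged from 7 (without mock replicate 204 or 205) to 12.

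For transcript usage, limma called 1 of the 10 genes in EPR against mock and 1 in EPRSTOPE against mock, and 16 genes in all in EPR against EPRSTOPE. Without a filter 52, 47 and 13 genes were called in the 3 comparisons. Leaving out 1 library gave 29 to 148 genes in EPR against mock (fewest without mock replicate 205, most without EPRSTOPE replicate 209), 44 to 417 in EPRSTOPE against mock (most without EPRSTOPE replicate 211) and 22 to 125 in EPR against EPRSTOPE. Of the 10 genes, 0 to 1 were called in EPR against mock and 0 to 1 in EPR against EPRSTOPE, *Fn1* without EPR replicate 208 and *Fstl1* without EPRSTOPE replicate 210. In EPR against mock both *Fn1* and *Fstl1* were called in some such fit, and in EPR against EPRSTOPE *Fstl1* was.

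Shares of transcripts were also computed from estimated counts and without each library, both chosen after seeing the data. From counts the coding share of *Fstl1* differed by −62.0 points for EPR against mock and 6.0 points for EPRSTOPE against mock, where TPM gave −43.6 and 28.3. The difference of the EDA share ran from −35.8 to −33.5 points for EPR against mock and from −36.3 to −31.5 for EPRSTOPE against mock without 1 library. Depth limits what can be said of *Ebf1*, *Pdgfra*, *Pdgfrb*, *Thy1* and *Postn*, and the lower bounds for *Scarf2* in EPR against mock ran from 203 to 340 and for *Pdgfra* from 6.14 (without mock replicate 205) to 12.2.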
